A study of Mus musculus with 24 samples.

Results

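The comparison described here is the depot difference in the response to EGCG (epigallocatechin gallate, the main green tea catechin) on day 4 of adipocyte differentiation. For each gene it is the effect of EGCG in cells of interscapular brown adipose tissue (BAT) minus the effect of EGCG in cells of inguinal white adipose tissue (WAT), each taken as EGCG minus control on the log2(FPKM + 1) scale. A value above 0 thus marks a gene whose response was more positive in BAT cells, and a value below 0 a gene whose response was more positive in WAT cells. It uses the 12 libraries of day 4 among the 24 of the series, in 4 groups of 3: WAT control, WAT EGCG, BAT control and BAT EGCG. The members were taken from the labels by day, depot and treatment, and no measured value entered that choice. All groups started from stromal vascular cells, which include the precursors of adipocytes, of 6-week-old C57BL/6 mice. All were kept in induction medium with insulin, dexamethasone and isobutylmethylxanthine until day 4, with DMSO (control) or EGCG added, and the labels give no dose of EGCG. Whether replicates were isolated separately is not in the labels, so p-values measure the spread between these samples, which may be technical.

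Adipogenesis starts from fibroblast-like precursors, and the induction hormones switch on C/EBP factors and then PPARγ, which together turn on the genes of fat storage. Cells that take the alternative myofibroblast path keep actin stress fibres, smooth muscle actin and matrix genes, a programme driven by serum response factor and TGF-β signalling. A separate programme, run by the hypoxia-inducible factors (HIFs), raises glucose uptake and glycolysis when the prolyl hydroxylases that mark HIFs for destruction are not active. White and brown precursors come from different lineages, and the question of the comparison is which genes respond to EGCG in a way that depends on the depot.

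On day 4 the depth was 40225413 to 51319195 gene-assigned reads a library in replicates 1 and 2, and 16392420 to 23449134 in replicate 3. The authors' FPKM values (reads scaled to gene length and library depth) of replicate 3 came from a second table that was scaled separately, so tests used replicates 1 and 2 unless a fit with replicate 3 is named, and replicate 3 alone gives direction and size without a test. A count of 3 reads, taken as the floor, is an FPKM of 0.0292 to 0.0915 in a gene of 2 kilobases, counting error only. The depot labels held in Zic1 and Hoxc10, picked from lists of 8 brown and 8 white depot markers. Zic1, a marker of the brown depot, had 10.9, 10.2 and 9.29 FPKM in BAT controls and 0.0243, 0.0665 and 0.163 in WAT controls. Hoxc10, a gene of the posterior body and the inguinal depot, had 8.50, 6.89 and 9.68 FPKM in WAT controls and at most 0.0582 in BAT controls. The whole lists separated the depots less. The brown depot genes summed to 79.0 to 88.2 FPKM in BAT controls and 65.3 to 78.3 in WAT controls. Zic1 itself makes up much of that gap, so the other brown depot genes together hardly separated the depots. The white depot genes summed to 26.8 to 31.1 FPKM in WAT controls and 15.7 to 17.0 in BAT controls. The summed FPKM of 20 mature adipocyte genes was 5599 to 6664 in WAT controls and 8682 to 11131 in BAT controls. In bulk samples such as these, fewer cells of a type and less RNA per cell cannot be told apart.

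The response to EGCG depended on the depot for 3959 of 14095 tested genes, 28.1%. Of these genes, 1689 (12% of the tested genes) had a difference above 0 and 2270 (16.1%) a difference below 0 (limma, adjusted p under 0.05, replicates 1 and 2). At least a 2-fold difference was found for 538 genes (3.82%), 297 above 0 and 241 below 0. Across all tested genes the effects in WAT and in BAT cells went together (Pearson r = 0.639, Spearman rho = 0.570 over 14095 genes, which are not independent replicates and share a table and its scaling). The median difference over all genes was -0.06, and its median standard error was 0.119. The division into higher and lower depends on scaling: 42.7% of the called genes lay above 0 as deposited, 61.5% of 3777 after median-ratio scaling and 49.9% of 3871 after quantile normalization.

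The 3959 genes were sorted by the response in each depot. A total of 448 genes (3.18% of those tested) responded in opposite directions, with 222 that rose with EGCG in WAT and fell in BAT cells and 226 that fell in WAT and rose in BAT cells. In 1284 genes the larger response was a rise in WAT cells and in 611 a fall in WAT cells, and these are called WAT-led. In 826 genes the larger response was a rise in BAT cells and in 720 a fall in BAT cells, called BAT-led, and 70 genes were called for the difference without a call for the larger response. Median-ratio scaling turned the WAT-led counts into 773 rises and 1036 falls and left 131 genes that rose in WAT and fell in BAT cells. The counts also rest on single libraries. Without replicate 1 of BAT EGCG, 138 genes rose in WAT and fell in BAT cells and 451 were BAT-led falls. Without replicate 1 of WAT EGCG 822 were WAT-led rises. The BAT-led falls numbered 426 without replicate 2 of BAT control and 479 without replicate 2 of WAT control. Without replicate 1 of all groups, with replicate 3 in its place, 1442 genes lay below 0, 753 were WAT-led rises and 133 rose in WAT and fell in BAT cells, and without replicate 2 there were 440 BAT-led falls.

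**Figure D1:**
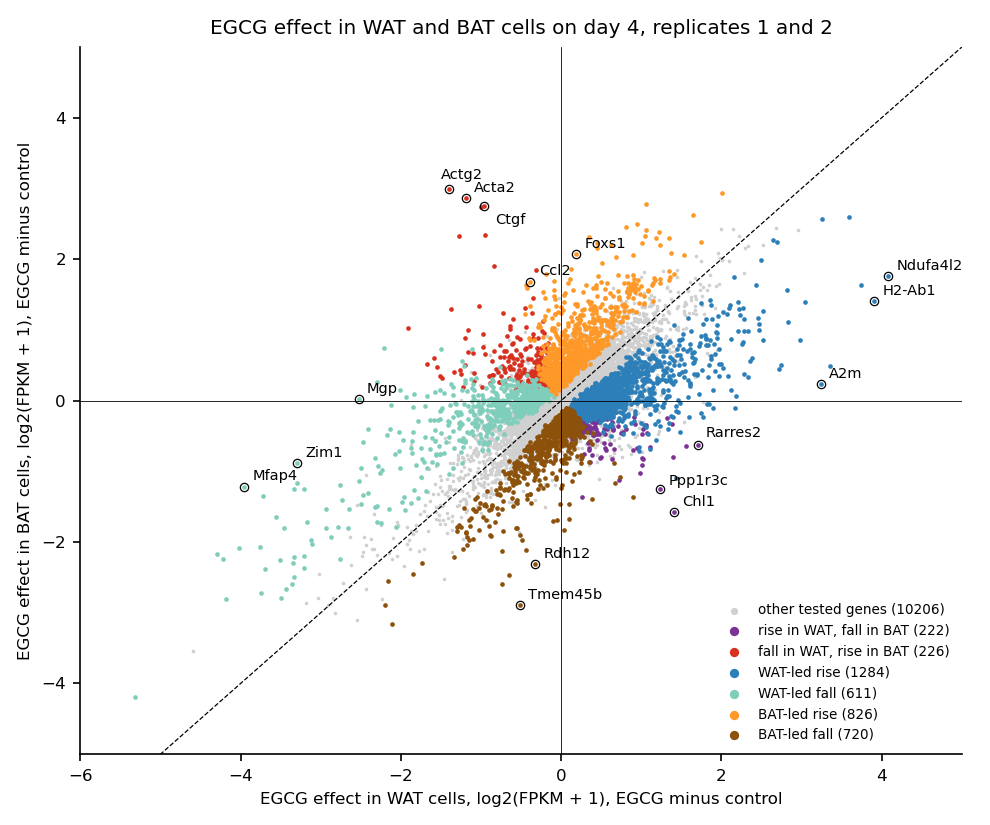
The EGCG effect in BAT cells (vertical axis) against that in WAT cells (horizontal axis), both as log2(FPKM + 1) differences from replicates 1 and 2, for 14095 genes, one point each. Colours mark the 6 response classes and grey the other 10206 tested genes, the dashed line marks equal effects, and the smooth muscle genes Actg2 and Acta2 stand with Ctgf at the upper left, with falls in WAT and rises in BAT cells.

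The smooth muscle and myofibroblast genes had the median difference farthest from 0 among the 27 gene lists examined. All 15 tested members of this list were called for the difference, 13 above 0 and 2 below 0, against 12% and 16.1% of all tested genes. The median was 1.96 against -0.06 over all genes. In BAT cells 14 of the 15 rose with EGCG and none fell, while in WAT cells 8 fell and 4 rose. Over all genes EGCG had a called effect on 48.5% in BAT cells (27.9% higher, 20.6% lower) and on 53.7% in WAT cells (34.4% higher, 19.3% lower). In 8 members the depots moved in opposite directions, against 3.18% of all genes. The sum over the 16 listed genes rose in both depots. It was 843 to 914 FPKM in WAT controls and 1001 to 1094 in WAT cells with EGCG. In BAT it was 450 to 507 in controls and 2078 to 2457 with EGCG.

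Acta2, smooth muscle α-actin and the usual marker of myofibroblasts (ENSMUSG00000035783.8, chromosome 19, 34315580 to 34329826 in the mouse genome build NCBIM37, as for all gene positions here), had 97.5, 80.4 and 83.0 FPKM in WAT controls and 39.0, 37.5 and 41.4 in WAT cells with EGCG. BAT controls had 47.5, 61.2 and 64.2, and BAT cells with EGCG had 447, 357 and 357. No library overlapped: EGCG lowered Acta2 in each WAT library and raised it in each BAT library, and the order of the depots turned over, with WAT above BAT in controls (log2 difference -0.70, adjusted p 0.0052) and BAT above WAT with EGCG (3.35, adjusted p 8.43e-08). The depot difference of its response was 4.06 ± 0.248 SE, adjusted p 1.32e-06. Actg2, smooth muscle γ-actin (ENSMUSG00000059430.8, chromosome 6, 83462899 to 83486259), had the largest difference of the genes named here (4.39 ± 0.330 SE, adjusted p 4.49e-06). It had 6.02, 5.72 and 5.81 FPKM in WAT controls and 2.11, 1.17 and 2.02 in WAT cells with EGCG. Values were 2.98, 4.30 and 4.69 in BAT controls and 43.4, 28.8 and 31.0 in BAT cells with EGCG. Tagln, the actin-bundling protein transgelin (ENSMUSG00000032085.4, chromosome 9, 45737711 to 45744141; its gene overlaps Pcsk7), followed the same course. It had 76.1, 68.8 and 67.8 FPKM in WAT controls and 35.6, 35.4 and 37.6 in WAT cells with EGCG. Among BAT libraries the controls had 44.5, 55.5 and 59.5 and those with EGCG 371, 306 and 322. Its difference was 3.74 ± 0.206 SE, adjusted p 6.64e-07. Like Acta2, it was higher in WAT than in BAT controls without overlap and higher in BAT cells with EGCG than in any other group. Ctgf, a matricellular growth factor and a target of TGF-β and YAP (ENSMUSG00000019997.4, chromosome 10, 24315248 to 24318489; it overlaps Gm15270), had 64.5, 53.8 and 74.3 FPKM in WAT controls and 30.2, 29.4 and 45.4 in WAT cells with EGCG. The BAT libraries gave 17.6, 21.4 and 35.5 in controls and 148, 127 and 164 with EGCG. Its 3 libraries with EGCG lay below the controls in WAT and above them in BAT cells, and its difference was 3.72 ± 0.261 SE, adjusted p 3.23e-06.

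Other members of the contractile apparatus split in the same way. The regulatory myosin light chain Myl9 fell in WAT by 1.28 and rose in BAT cells by 2.33 on the log2 scale, from 8.75, 10.2 and 12.1 to 56.2, 47.3 and 50.7 FPKM in BAT, with a difference of 3.61 ± 0.205 SE, adjusted p 8.93e-07. Calponin (Cnn1, 3.29 ± 0.198) and the smooth muscle myosin heavy chain Myh11 (1.41 ± 0.158) likewise fell in WAT and rose in BAT cells. So did Cyr61, a matricellular relative of Ctgf, which went from 474, 441 and 431 to 172, 178 and 176 FPKM in WAT and from 114, 120.3 and 125 to 298, 281 and 257 in BAT cells. Tropomyosins and leiomodin rose in BAT cells without a called response in WAT cells. Tpm2 (ENSMUSG00000028464.9, chromosome 4, 43527583 to 43536637) had 18.0, 17.2 and 18.4 FPKM in WAT controls and 22.8, 22.7 and 23.2 in WAT cells with EGCG. For BAT cells the values were 13.0, 14.7 and 15.1 in controls and 80.9, 65.4 and 66.8 with EGCG. Its response differed by 1.96 ± 0.207 SE, adjusted p 5.33e-05. Tpm1 (1.57 ± 0.185) and the actin nucleator Lmod1 (1.74 ± 0.153) did the same, and Ankrd1 (0.72 ± 0.176) and the ligand Tgfb1 (0.60 ± 0.0931) rose in both depots and more in BAT cells. The muscle intermediate filament desmin (Des, -0.52 ± 0.165) was called below 0. It was not called in 12 of the 20 other settings, with adjusted p from 0.0537 to 0.130, and its difference was -0.30 without replicate 2 of BAT control.

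The promoter of Myl9 is shown because it is the list's one RefSeq promoter window, among the 9 members with an entry, with a strict match to the CArG box, the sequence bound by serum response factor. Only the strict form was searched (CC, then A or T at each inner base, then GG), so a box that departs from it was not counted. The search covered both strands of the 250 bases before each gene's start, and 1.62% of all 27025 genes of the table hold such a strict box there. The box stands in capitals, and its first base lies 161 bases before the start.
Myl9 (GRCm38.p6, chr2:156775284-156775463, + strand): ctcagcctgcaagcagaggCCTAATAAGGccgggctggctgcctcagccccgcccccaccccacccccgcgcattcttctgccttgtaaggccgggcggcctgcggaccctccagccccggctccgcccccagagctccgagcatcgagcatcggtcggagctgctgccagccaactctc

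**Figure D2:**
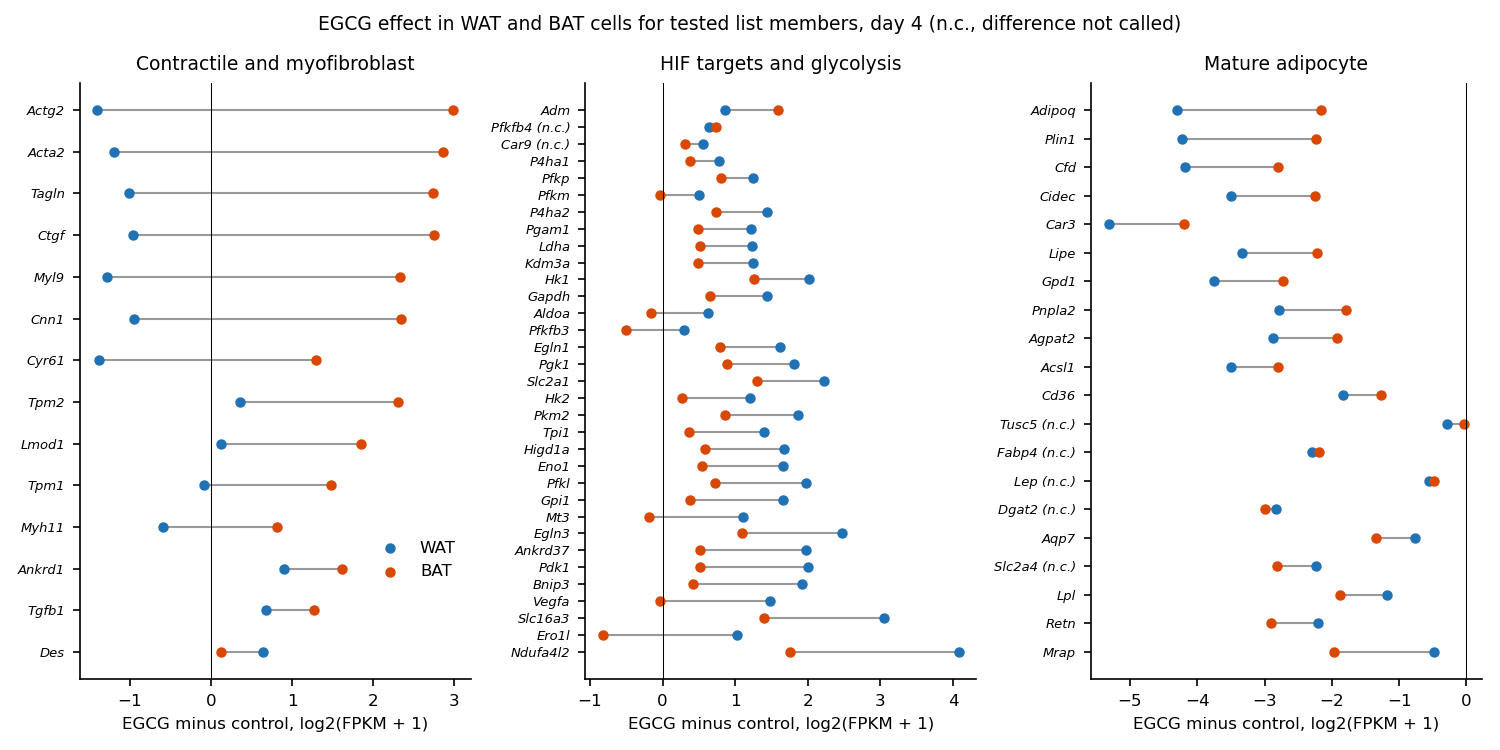
EGCG effects in WAT (blue) and BAT cells (orange) as log2(FPKM + 1) differences, EGCG minus control, replicates 1 and 2, for tested members of the contractile, the joined HIF target and glycolysis, and the mature adipocyte lists, ordered by the difference. The pairs straddle 0 in the upper part of the contractile panel, the blue points lie to the right for most HIF and glycolysis genes, and both points lie to the left of 0 for all adipocyte genes.

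Of 22 collagen and matrix genes 8 were called above 0 and 1 below 0, against 12% and 16.1% of all tested genes, with a median of 0.23. Postn, the matricellular protein periostin, went from 1141, 1080.3 and 948 to 552, 654 and 529 FPKM in WAT cells and from 332, 362 and 355 to 457, 427 and 405 in BAT cells (1.23 ± 0.129 SE, adjusted p 4.92e-05). The collagen cross-linking enzyme Lox (1.17 ± 0.0938 SE, adjusted p 7.47e-06) and thrombospondin 1 (Thbs1, 1.76 ± 0.305 SE, adjusted p 0.00154) were BAT-led rises, and Col1a2 was a WAT-led fall (-1.28 ± 0.0909 in WAT, -0.39 ± 0.0909 in BAT cells). Decorin (Dcn, -0.69 ± 0.143 SE, adjusted p 0.00454), which binds TGF-β, was the one member below 0, with a fall in BAT cells. Sgk1, a kinase induced by glucocorticoids and serum, had 146, 133 and 130.2 FPKM in WAT controls and 81.3, 74.2 and 82 in WAT cells with EGCG. Its BAT values were 25.6, 25.1 and 26.1 in controls and 106, 90.4 and 79.5 with EGCG. Its libraries with EGCG lay below all controls in WAT and above all controls in BAT cells (2.74 ± 0.168 SE, adjusted p 1.32e-06), as did those of Gadd45g, a stress and growth arrest gene (2.19 ± 0.107 SE, adjusted p 5.43e-07). Klf4 (1.44 ± 0.135 SE, adjusted p 2.25e-05), a transcription factor that acts early in adipogenesis and in smooth muscle, and the kinase Plk2 (1.67 ± 0.308 SE, adjusted p 0.00226) were BAT-led rises.

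The genes that rose in WAT and fell in BAT cells included Ppp1r3c and Ppp1r3b, glycogen-targeting subunits of protein phosphatase 1, and Rarres2 and Chl1, all named by the rule. Ppp1r3c (ENSMUSG00000067279.2, chromosome 19, 36806227 to 36811143), which brings the phosphatase to glycogen, had 7.86, 8.23 and 9.04 FPKM in WAT controls and 19.6, 20.9 and 19.4 in WAT cells with EGCG. BAT libraries held 10.6, 10.1 and 11.7 in controls and 3.80, 3.74 and 4.60 with EGCG. It was thus raised in WAT and lowered in BAT cells, with no overlap between libraries. Ppp1r3b, a second such subunit (ENSMUSG00000046794.8, chromosome 8, 36438795 to 36451178), had 2.77, 2.90 and 2.86 FPKM in WAT controls and 11.1, 9.58 and 10.1 in WAT cells with EGCG. BAT controls had 12.6, 14.7 and 12.5, and BAT cells with EGCG had 8.18, 8.54 and 8.21. For both genes the 3 libraries with EGCG lay above the controls in WAT cells and below them in BAT cells, with differences of -2.48 ± 0.198 SE, adjusted p 7.27e-06, and -2.21 ± 0.136 SE, adjusted p 1.32e-06. Rarres2, the adipokine chemerin (ENSMUSG00000009281.4, chromosome 6, 48519697 to 48522669; it overlaps Lrrc61), had 17.1, 18.9 and 32.7 FPKM in WAT controls and 69.4, 53.1 and 92.1 in WAT cells with EGCG. Values were 17.0, 17.8 and 27.6 in BAT controls and 10.5, 11.3 and 14.1 in BAT cells with EGCG. Its controls showed no called difference between the depots (log2 difference -0.04, adjusted p 0.77), and its response differed by -2.33 ± 0.163 SE, adjusted p 3.08e-06. Chl1, a cell adhesion molecule of the L1 family (ENSMUSG00000030077.8, chromosome 6, 103460870 to 103699671; it overlaps a U7 gene), had 4.32, 5.22 and 4.63 FPKM in WAT controls and 13.8, 14.7 and 12.8 in WAT cells with EGCG. Among BAT libraries the controls had 19.5, 14.4 and 12.2 and those with EGCG 3.96, 6.14 and 5.78. Here the depot order turned over, with BAT above WAT in controls and WAT above BAT with EGCG, and the difference was -2.98 ± 0.410 SE, adjusted p 0.000322. Ero1l, an oxidase of the endoplasmic reticulum that HIF induces, had 69.9, 65.9 and 62.2 and 139, 138 and 125 FPKM in WAT control and EGCG cells and 85.0, 94.2 and 98.5 and 48.9, 51.4 and 48.4 in the BAT groups (-1.84 ± 0.108 SE, adjusted p 1.21e-06). The cystine importer Slc7a11 (-2.02 ± 0.192 SE, adjusted p 2.41e-05) followed the same course.

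**Figure D3:**
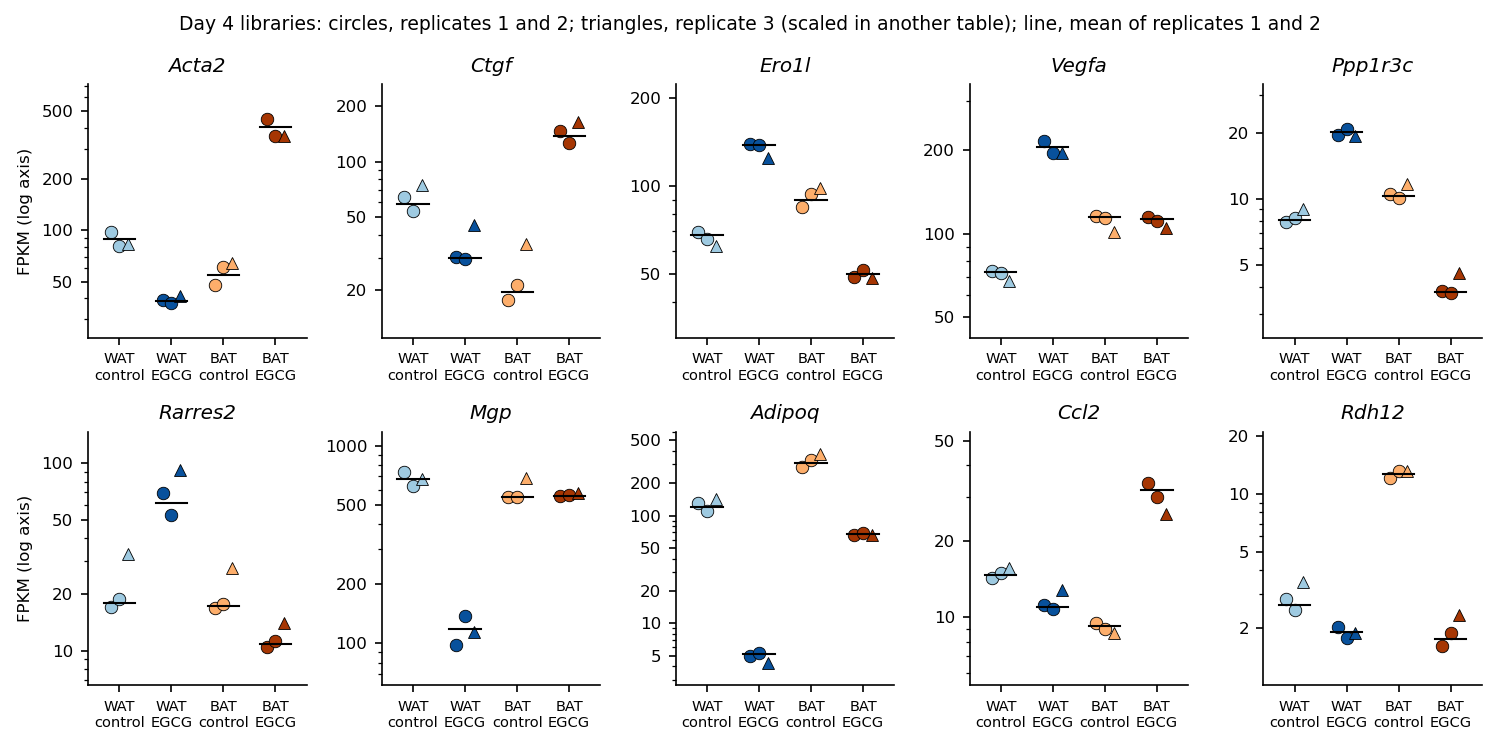
FPKM of 10 genes in each day 4 library on log axes, with circles for replicates 1 and 2, triangles for replicate 3, which was scaled in another table, and a line at the mean of replicates 1 and 2. Acta2 and Ctgf fell in WAT and rose in BAT cells, Ero1l, Ppp1r3c and Rarres2 did the opposite, and Vegfa, Mgp, Adipoq, Ccl2 and Rdh12 had the larger response in one depot.

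HIF targets and glycolytic enzymes rose in WAT cells more than in BAT cells. Of 22 tested HIF targets 20 were called, 19 below 0 and 1 above 0, and all 15 glycolysis genes were called below 0, against 16.1% of all genes. The lists share 4 genes and had medians of -0.92 each, and of -0.83 each after median-ratio scaling. Of the HIF targets 21 rose in WAT cells and none fell, while 15 rose and 3 fell in BAT cells. All 15 glycolysis genes rose in WAT cells, and in BAT cells 13 rose and 1 fell.

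Vegfa, the main angiogenic growth factor, had 73.6, 72.5 and 67.6 FPKM in WAT controls and 215, 196 and 195 in WAT cells with EGCG. The BAT libraries gave 116, 114 and 101 in controls and 115, 111 and 105 with EGCG. EGCG thus raised Vegfa in all WAT libraries and brought no called response in BAT cells (-0.03 ± 0.0441), with a difference of -1.51 ± 0.0623 SE, adjusted p 2.68e-07. The lactate exporter Slc16a3 had 5.06, 5.07 and 5.69 FPKM in WAT controls and 51.2, 47.2 and 59.8 in WAT cells with EGCG. For BAT cells the values were 11.3, 8.14 and 9.95 in controls and 27.7, 26.1 and 30.5 with EGCG. The depot difference was -1.65 ± 0.174 SE, adjusted p 5.25e-05. It rose in both depots, and more in WAT cells, like Bnip3, which drives the removal of mitochondria (1.92 ± 0.125 in WAT, 0.42 ± 0.125 in BAT cells, difference -1.50 ± 0.177), and Pdk1, which closes pyruvate entry into mitochondria (2.00 ± 0.0689 in WAT, 0.52 ± 0.0689 in BAT cells, difference -1.48 ± 0.0975). Ndufa4l2, a mitochondrial protein that HIF induces (ENSMUSG00000040280.9, chromosome 10, 126951995 to 126954208; it overlaps Shmt2), was named by the rule and had 13.4, 15.3 and 19.3 FPKM in WAT controls and 285, 234 and 301 in WAT cells with EGCG. Its BAT values were 38.1, 24.7 and 36.3 in controls and 107, 105 and 134 with EGCG. Its difference was -2.32 ± 0.220 SE, adjusted p 2.33e-05. The glucose transporter Slc2a1 (2.22 ± 0.104 in WAT, 1.30 ± 0.104 in BAT cells) and the prolyl hydroxylase Egln3 (2.47 ± 0.0929 and 1.09 ± 0.0929) rose in both. Among the enzymes, differences ran from -0.45 ± 0.0742 for the phosphofructokinase Pfkp to -1.28 ± 0.0595 for the isomerase Gpi1, and the transporter Slc16a3 lay beyond these at -1.65. The exception was Adm, the vasodilator peptide adrenomedullin, a BAT-led rise (0.86 ± 0.0639 in WAT, 1.59 ± 0.0639 in BAT cells, 0.73 ± 0.0904 SE, adjusted p 0.000173), and Car9 and Pfkfb4 were not called. Gapdh had 26.0, 26.5 and 793 FPKM in WAT controls, so the second table gave this gene a level of another order than the first, and its difference was -0.79 in replicates 1 and 2 and -0.95 in replicate 3.

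The promoters of 5 members are shown because the core of the hypoxia response element, ACGTG on either strand, stands in the 250 bases before the start in 14 of the 20 HIF targets with a RefSeq promoter window (57.1% of their 28 windows) and in 7 of the 14 glycolysis genes with one, against 18.5% of all 27025 genes (16.6% of 32851 windows). The core is part of the E-box CACGTG, which 3 of those 20 HIF targets and 6.86% of all genes hold. A match is a description of the sequence and not a bound site, and these lists were drawn up from known targets. Each run gives the last 180 bases before the start, 5′ to 3′ on the strand of the gene, with the core in capitals.
Pgk1 (GRCm38.p6, chrX:106186920-106187099, + strand): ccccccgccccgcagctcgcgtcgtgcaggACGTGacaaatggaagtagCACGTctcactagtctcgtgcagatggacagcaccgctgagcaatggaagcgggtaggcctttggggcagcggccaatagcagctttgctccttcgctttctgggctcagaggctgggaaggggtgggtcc
Bnip3 (GRCm38.p6, chr7:138909507-138909686, - strand): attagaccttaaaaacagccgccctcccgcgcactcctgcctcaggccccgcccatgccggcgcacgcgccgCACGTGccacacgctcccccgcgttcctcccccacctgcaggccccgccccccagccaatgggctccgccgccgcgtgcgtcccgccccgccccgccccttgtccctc
Slc2a1 (GRCm38.p6, chr4:119108565-119108744, + strand): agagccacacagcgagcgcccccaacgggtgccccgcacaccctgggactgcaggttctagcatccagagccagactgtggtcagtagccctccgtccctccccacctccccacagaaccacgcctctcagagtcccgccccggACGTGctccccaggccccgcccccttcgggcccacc
Ankrd37 (GRCm38.p6, chr8:45999851-46000030, - strand): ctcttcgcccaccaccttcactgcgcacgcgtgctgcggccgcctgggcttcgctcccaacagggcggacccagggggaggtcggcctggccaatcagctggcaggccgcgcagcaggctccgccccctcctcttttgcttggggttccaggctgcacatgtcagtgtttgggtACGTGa
Ldha (GRCm38.p6, chr7:46845624-46845803, + strand): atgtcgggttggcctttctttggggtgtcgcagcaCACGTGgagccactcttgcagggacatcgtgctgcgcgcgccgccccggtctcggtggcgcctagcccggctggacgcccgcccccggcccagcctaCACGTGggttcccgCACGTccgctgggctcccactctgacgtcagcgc

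Of the genes shown, Pgk1, which makes ATP in glycolysis, went from 161, 161 and 181 to 582, 549 and 642 FPKM in WAT and from 265, 243 and 284 to 469.8, 466 and 517 in BAT cells (-0.92 ± 0.0907 SE, adjusted p 3.19e-05). It rose in every library of both depots, and more in WAT cells. Ankrd37, at low levels, had 1.20, 0.880 and 1.18 FPKM in WAT controls and 6.41, 7.54 and 11.4 in WAT cells with EGCG. BAT libraries held 0.992, 1.65 and 2.18 in controls and 2.41, 2.19 and 4.04 with EGCG. Its difference was -1.45 ± 0.377 SE, adjusted p 0.0149. Its call was lost without replicate 2 of BAT control (adjusted p 0.0578) or of WAT control (adjusted p 0.052). Ldha, which makes lactate, had a difference of -0.72 ± 0.0805 SE, adjusted p 8.23e-05, and of -0.41 after quantile normalization.

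The other WAT-led rises named by the rule came from different families. A2m, the protease inhibitor α2-macroglobulin (ENSMUSG00000030111.8, chromosome 6, 121586191 to 121629255), had 19.5, 22.3 and 22.8 FPKM in WAT controls and 215, 197 and 209 in WAT cells with EGCG. BAT controls had 23.3, 14.0 and 18.1, and BAT cells with EGCG had 20.8, 22.1 and 23.9. It rose in each WAT library while BAT cells gave no called response (0.23 ± 0.244), and the difference was -3.01 ± 0.345 SE, adjusted p 9.57e-05. H2-Ab1, a chain of the MHC class II molecule (ENSMUSG00000073421.4, chromosome 17, 34400154 to 34406363; it overlaps H2-Aa), had 0.290, 0.212 and 0.403 FPKM in WAT controls and 20.9, 15 and 22.4 in WAT cells with EGCG. Values were 0.390, 0.826 and 0.737 in BAT controls and 3.50, 2.98 and 4.10 in BAT cells with EGCG. The depots differed by -2.49 ± 0.406 SE, adjusted p 0.00102. It was the one of 5 tested class II genes with a call, and H2-Eb1 gave -0.31 ± 0.173 and H2-DMa -0.37 ± 0.144, although H2-DMa was called in the fit of all 3 replicates (-0.40, adjusted p 0.00862). Prl2c2, a member of the prolactin family whose near-identical copies can share its reads (ENSMUSG00000079092.2, chromosome 13, 13088393 to 13097659), had 1.44, 2.50 and 2.08 FPKM in WAT controls and 34.2, 24.2 and 36.8 in WAT cells with EGCG. Among BAT libraries the controls had 46.1, 38.3 and 33.1 and those with EGCG 57.0, 61.8 and 64.2. BAT controls stood above WAT controls, and the difference was -2.86 ± 0.273 SE, adjusted p 2.44e-05. WAT cells with EGCG lay above all WAT controls. They lay below the BAT controls in replicates 1 and 2 and above the BAT control in replicate 3, each taken within its own table. Ddit4, an inhibitor of mTOR signalling that stress and low oxygen induce, had 70.6, 67.2 and 63.5 FPKM in WAT controls and 316, 292 and 244 in WAT cells with EGCG. The BAT libraries gave 192, 186 and 142 in controls and 215, 203 and 169.6 with EGCG. Its depot difference came to -1.98 ± 0.326 SE, adjusted p 0.00109. The cell cycle inhibitor Cdkn1a rose in both depots, and more in WAT cells (2.27 ± 0.0603 in WAT, 1.31 ± 0.0603 in BAT, -0.96 ± 0.0852 SE, adjusted p 1.49e-05).

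Targets of NRF2, the factor of the antioxidant response, leaned the same way. Of 22 tested targets 12 were called below 0 and none above, against 16.1% and 12% of all tested genes. The median was -0.47, and 16 targets rose in WAT cells against 11 in BAT cells. Hmox1, which breaks down haem, had 203, 192 and 194 FPKM in WAT controls and 1155, 1082 and 1236 in WAT cells with EGCG. For BAT cells the values were 125, 129 and 130.0 in controls and 529.8, 488 and 516 with EGCG. This was a rise in both depots that was larger in WAT cells (-0.50 ± 0.111 SE, adjusted p 0.00628). Slc7a11, Pgd and Gsr, for cystine uptake, NADPH and glutathione reduction, rose in WAT and fell in BAT cells (Pgd -1.04 ± 0.112 SE, adjusted p 5.97e-05, and Gsr -0.63 ± 0.0902 SE, adjusted p 0.00043). The classic target Nqo1 rose in both depots (1.10 ± 0.103 in WAT, 0.88 ± 0.103 in BAT cells) and was not called for the difference (adjusted p 0.277).

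Genes of the fat cell fell in both depots, and 11 of the 20 listed fell more in WAT cells. Of 20 mature adipocyte genes 19 fell with EGCG in each depot and none rose. For the difference 11 were called above 0, which is a larger fall in WAT cells, and 4 below 0. Over all tested genes the shares were 12% and 16.1%. The median of the list was 0.64 (0.73 after median-ratio scaling). The list summed to 5599 to 6664 FPKM in WAT controls and 1070 to 1257 in WAT cells with EGCG. In BAT cells it summed to 8682 to 11131 and 1818 to 1935, so the sum fell to a like degree in both depots. Adipoq, the adipokine adiponectin, had 131, 110.2 and 143 FPKM in WAT controls and 5.04, 5.31 and 4.29 in WAT cells with EGCG. Its BAT values were 285, 333 and 377 in controls and 66.3, 69.3 and 66.3 with EGCG. Its libraries with EGCG lay below the controls in both depots, and the effect was -4.30 ± 0.0948 in WAT and -2.17 ± 0.0948 in BAT cells, a difference of 2.13 ± 0.134 SE, adjusted p 1.46e-06. The lipid droplet proteins Plin1 (1.99 ± 0.197 SE, adjusted p 3.27e-05) and Cidec (1.25 ± 0.150 SE, adjusted p 0.000129) and the complement factor adipsin (Cfd, 1.38 ± 0.184 SE, adjusted p 0.000258) behaved alike. Cidec gave 2.07 with a pseudocount of 0.1, which lowers the damping of low values. Lipoprotein lipase (Lpl, -0.69 ± 0.112 SE, adjusted p 0.000966) and the melanocortin receptor partner Mrap (-1.48 ± 0.120 SE, adjusted p 7.97e-06) were among the 4 genes with the larger fall in BAT cells. Mrap had 31.7, 27.5 and 35.2 FPKM in WAT controls and 22.2, 19.4 and 22.9 in WAT cells with EGCG. BAT libraries held 74.1, 82.4 and 86.5 in controls and 19.8, 18.6 and 20.0 with EGCG. Fabp4, the fatty acid carrier of fat cells, fell in both and was not called for the difference (-2.29 ± 0.0983 in WAT, -2.19 ± 0.0983 in BAT cells, adjusted p 0.613). Of the factors that drive adipogenesis, Cebpa was a WAT-led fall (-2.29 ± 0.1 in WAT, -1.72 ± 0.1 in BAT, 0.58 ± 0.142 SE, adjusted p 0.0109), Pparg was not called (-0.23 ± 0.149), and Srebf1, which drives lipogenesis, was a BAT-led fall (-0.64 ± 0.107 SE, adjusted p 0.00121). Over the 18 adipogenic factors 5 were called above 0 and 4 below 0, against 12% and 16.1% of all tested genes. Dlk1, which marks precursors and restrains adipogenesis, also fell more in WAT cells (-2.93 ± 0.195 in WAT, -1.80 ± 0.195 in BAT, 1.14 ± 0.275 SE, adjusted p 0.0103).

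The WAT-led falls named by the rule lay outside the adipocyte list. Mgp, the matrix Gla protein that restrains calcification (ENSMUSG00000030218.1, chromosome 6, 136820957 to 136824326), had 737, 624 and 682 FPKM in WAT controls and 98.5, 138 and 114 in WAT cells with EGCG. BAT controls had 552, 554 and 690.5, and BAT cells with EGCG had 558, 561 and 578. It fell in each WAT library and stayed without a called response in BAT cells (0.02 ± 0.157), a difference of 2.55 ± 0.223 SE, adjusted p 1.34e-05. Mfap4, a microfibril-associated matrix protein (ENSMUSG00000042436.6, chromosome 11, 61298933 to 61302402; it overlaps Mapk7), had 53.2, 46.9 and 45.0 FPKM in WAT controls and 1.83, 2.81 and 2.22 in WAT cells with EGCG. Values were 5.69, 5.92 and 7.20 in BAT controls and 1.84, 2.01 and 2.05 in BAT cells with EGCG. Its response differed by 2.74 ± 0.223 SE, adjusted p 8.29e-06. It fell in both depots, and less in BAT cells, whose controls were lower. Zim1, an imprinted zinc finger gene (ENSMUSG00000002266.9, chromosome 7, 6628154 to 6649161), had 28.3, 31.8 and 14.4 FPKM in WAT controls and 1.86, 2.49 and 0.800 in WAT cells with EGCG. Among BAT libraries the controls had 5.20, 5.40 and 4.09 and those with EGCG 2.41, 2.43 and 1.27. The depot difference was 2.41 ± 0.188 SE, adjusted p 5.89e-06. Both genes were lower in BAT than in WAT controls, and with EGCG the depots no longer differed by a called amount (adjusted p 0.405 for Mfap4 and 0.513 for Zim1). Apol8, of the apolipoprotein L family (ENSMUSG00000056656.4, chromosome 15, 77578229 to 77585678), had 6.81, 5.53 and 5.34 FPKM in WAT controls and 0.467, 0.426 and 0.479 in WAT cells with EGCG. The BAT libraries gave 0.102, 0.175 and 0.156 in controls and 0.358, 0.380 and 0.351 with EGCG. Its difference was 2.57 ± 0.191 SE, adjusted p 4.25e-06. Its level in BAT cells stayed under 1 FPKM, where the pseudocount damps changes, and its difference was 4.51 with a pseudocount of 0.1. Over all WAT-led falls, 63 of 611 genes had a mean under 1 FPKM in BAT controls.

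Interferon-stimulated genes, which respond to antiviral signalling, also fell more in WAT cells. In WAT cells 18 of 19 fell with EGCG and none rose, and in BAT cells 12 fell and 1 rose. With EGCG 13 genes in WAT and 11 in BAT cells had a mean under 1 FPKM, where the pseudocount damps changes. In controls this held for 1 gene in WAT and 5 in BAT cells, and its part in the difference was not tested. For the difference 9 of the 19 were called above 0 and none below, against 12% and 16.1% of all tested genes. The median was 0.79 in replicates 1 and 2 and 0.99 in replicate 3. In the fit of all 3 replicates 17 were called, and 15 in the fit without replicate 2. Isg15, a ubiquitin-like protein, had 25.8, 31.6 and 29.9 FPKM in WAT controls and 1.35, 1.19 and 1.41 in WAT cells with EGCG. For BAT cells the values were 11.8, 12.3 and 9.92 in controls and 1.45, 1.56 and 2.70 with EGCG. The depots differed by 1.32 ± 0.221 SE, adjusted p 0.00126. It fell in each library of both depots. Bst2, which tethers budding virus, had 70.0, 91.5 and 73.7 FPKM in WAT controls and 13.4, 13.3 and 12.9 in WAT cells with EGCG. Its BAT values were 35.4, 26.3 and 30.6 in controls and 9.90, 11.0 and 11.8 with EGCG. Its depot difference came to 1.03 ± 0.201 SE, adjusted p 0.00311. In both genes the WAT controls stood above the BAT controls, and with EGCG the depots did not differ by a called amount (adjusted p 0.492 for Isg15 and 0.0761 for Bst2). The interferon regulator Irf7 (1.13 ± 0.283 SE, adjusted p 0.0125) lost its call without replicate 2 of WAT control (adjusted p 0.0516). Ifit2 fell in WAT and rose in BAT cells (0.79 ± 0.146 SE, adjusted p 0.00237).

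DNA replication and mitosis genes had the more positive response in BAT cells. All 23 tested genes had a difference above 0, and 14 were called, against 12% of all tested genes called above 0. In WAT cells 15 fell and none rose, and in BAT cells 6 rose and 2 fell, with a median difference of 0.39. Rrm2, a subunit of ribonucleotide reductase, had 18.8, 19.7 and 18.1 FPKM in WAT controls and 19.2, 17.1 and 17.9 in WAT cells with EGCG. BAT libraries held 27.8, 30.0 and 25.3 in controls and 59.4, 55.6 and 49.0 with EGCG. Its response differed by 1.05 ± 0.186 SE, adjusted p 0.00178. It rose in BAT cells and gave no called response in WAT cells. The replicative helicase subunits Mcm2 (0.69 ± 0.120 SE, adjusted p 0.0016) and Mcm3 (0.60 ± 0.109 SE, adjusted p 0.00213) fell in WAT and rose in BAT cells, Mcm6 (0.75 ± 0.0800 SE, adjusted p 5.43e-05) and the mitotic kinase Cdk1 (0.71 ± 0.115 SE, adjusted p 0.000977) were WAT-led falls, and the proliferation marker Mki67 was called in the fit of all 3 replicates (0.31, adjusted p 0.0099) and not in replicates 1 and 2 (0.22 ± 0.108). The number called was 8 without replicate 2 of BAT EGCG, 9 without replicate 1 of WAT control and 9 without replicate 2 of WAT EGCG, while the fit of all 3 replicates called 20.

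BAT-led rises included monocyte chemokines beside the contractile genes. Ccl2, which attracts monocytes (ENSMUSG00000035385.5, chromosome 11, 81849073 to 81850955; it overlaps Gm17268), had 14.3, 15 and 15.7 FPKM in WAT controls and 11.2, 10.8 and 12.8 in WAT cells with EGCG. BAT controls had 9.46, 9.03 and 8.63, and BAT cells with EGCG had 33.9, 30.0 and 25.7. In WAT cells the libraries with EGCG lay below the controls, and in BAT cells above them. Its neighbour Ccl7 (ENSMUSG00000035373.2, chromosome 11, 81859214 to 81861027) had 21.0, 20.6 and 20.8 FPKM in WAT controls and 19.2, 17.1 and 23.4 in WAT cells with EGCG. Values were 25.9, 23.1 and 24.5 in BAT controls and 86.5, 87.5 and 89.0 in BAT cells with EGCG. Both rose in each BAT library and gave no called response in WAT cells, with differences of 2.07 ± 0.266 SE, adjusted p 0.000214, and 1.98 ± 0.375 SE, adjusted p 0.00266. Csf1, the growth factor of macrophages, rose in both depots and more in BAT cells (0.44 ± 0.0604 in WAT, 1.47 ± 0.0604 in BAT, 1.03 ± 0.0855 SE, adjusted p 9.46e-06), and so did the cytokine Lif (0.71 ± 0.138 SE, adjusted p 0.00309). Ccl11, the eosinophil chemokine eotaxin, fell in WAT cells, from 60.4, 58.7 and 60.6 to 19.8, 18.8 and 19.1 FPKM, with 22.1, 22.6 and 25.6 and 24.4, 24.3 and 21.3 in BAT control and EGCG cells (1.70 ± 0.253 SE, adjusted p 0.000558). Summed macrophage markers stood at 216 to 234 FPKM in WAT and 451 to 543 in BAT cells with EGCG, against 92.1 to 102.1 and 216 to 241 in the controls, and their part in the chemokine values was not tested. In the other direction lay Il33, an alarmin of stromal cells (-1.63 ± 0.362 SE, adjusted p 0.00656), a WAT-led rise. The list of 16 cytokines and chemokines was divided, with 6 called above 0 and 5 below 0, against 12% and 16.1% of all tested genes. Without a filter on low values 7 members were called in place of 11. Foxs1, a forkhead factor of pericytes and mesenchyme (ENSMUSG00000074676.2, chromosome 2, 152757634 to 152758944), had 1.19, 0.871 and 0.791 FPKM in WAT controls and 1.25, 1.36 and 1.69 in WAT cells with EGCG. Among BAT libraries the controls had 1.33, 2.09 and 1.91 and those with EGCG 12.1, 8.68 and 10.0. The depot difference was 1.88 ± 0.223 SE, adjusted p 0.000122. It rose in each BAT library with EGCG.

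BAT-led falls named by the rule were all genes that were higher in BAT than in WAT controls. Rdh12, a retinol dehydrogenase (ENSMUSG00000021123.6, chromosome 12, 80309901 to 80323652), had 2.81, 2.47 and 3.48 FPKM in WAT controls and 2.03, 1.77 and 1.87 in WAT cells with EGCG. The BAT libraries gave 12.2, 13.2 and 13.2 in controls and 1.61, 1.89 and 2.32 with EGCG. With EGCG the depots no longer differed by a called amount (-0.08, adjusted p 0.48), and the response differed by -1.99 ± 0.120 SE, adjusted p 1.32e-06. Lcn2, the siderophore-binding lipocalin of inflamed fat (ENSMUSG00000026822.9, chromosome 2, 32240153 to 32243317), had 37.3, 30.9 and 47.3 FPKM in WAT controls and 46.0, 26.3 and 47.6 in WAT cells with EGCG. For BAT cells the values were 162, 170.0 and 190.4 in controls and 45.1, 46.4 and 49.0 with EGCG. Its difference was -1.87 ± 0.315 SE, adjusted p 0.0013. Its WAT libraries with EGCG overlapped the WAT controls, and its BAT libraries with EGCG lay below all BAT controls. Rasd1, a small GTPase induced by dexamethasone (ENSMUSG00000049892.7, chromosome 11, 59776683 to 59778446), had 7.27, 6.08 and 8.22 FPKM in WAT controls and 3.22, 3.97 and 4.42 in WAT cells with EGCG. Its BAT values were 16.4, 17.8 and 20.7 in controls and 2.06, 1.94 and 3.08 with EGCG. The depots differed by -1.85 ± 0.152 SE, adjusted p 9e-06. It fell in both depots, and more in BAT cells. Tmem45b, a membrane protein (ENSMUSG00000041737.7, chromosome 9, 31233784 to 31271823), had 0.669, 0.267 and 0.776 FPKM in WAT controls and 0.0144, 0.0136 and 0 in WAT cells with EGCG. BAT libraries held 8.56, 7.89 and 10.5 in controls and 0.232, 0.245 and 0.245 with EGCG. Its depot difference came to -2.38 ± 0.175 SE, adjusted p 4.03e-06. All 6 of its WAT libraries were under 1 FPKM, where the pseudocount damps changes. In replicates 1 and 2 its mean fell from 0.468 to 0.0140 FPKM in WAT cells. In BAT cells the mean fell from 8.22 to 0.238 FPKM, a like proportion. The larger fall in BAT cells thus holds on the log2(FPKM + 1) scale only. Over 14 lipogenesis genes 10 fell in WAT and 12 in BAT cells, while 1 difference was called above 0 and 3 below 0, near the 28.1% called over all genes. Pnpla3, a lipid droplet acyltransferase and lipase that insulin induces, had 1.04, 0.920 and 1.18 FPKM in WAT controls and 1.09, 1.15 and 0.882 in WAT cells with EGCG. BAT controls had 4.93, 5.34 and 5.91, and BAT cells with EGCG had 0.992, 0.857 and 0.986. Its response differed by -1.77 ± 0.124 SE, adjusted p 3.09e-06. The desaturase Scd2 had 337, 365 and 369 and 189, 190.3 and 198 FPKM in BAT control and EGCG cells (-0.95 ± 0.0642 SE, adjusted p 2.41e-06). Neither gene had a called response in WAT cells. Other settings called more of the list, 11 with all 3 replicates, 11 without replicate 1 and 9 without replicate 2. The carbohydrate-sensing factor Mlxipl was the one above 0 (1.16 ± 0.274, or 2.10 with a pseudocount of 0.1).

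Cholesterol synthesis genes, which SREBP2 drives as a unit, responded less positively in BAT cells. Of 22 genes 17 were called below 0 and none above, against 16.1% and 12% of all tested genes. The median was -0.51 (-0.42 after median-ratio scaling). In WAT cells 11 rose and 6 fell, in BAT cells 2 rose and 14 fell, and 4 moved in opposite directions. Lss, which closes the sterol rings, had 7.05, 7.56 and 7.36 FPKM in WAT controls and 9.92, 9.35 and 10.1 in WAT cells with EGCG. Values were 12.6, 13.8 and 13.6 in BAT controls and 6.92, 6.58 and 7.17 in BAT cells with EGCG. The depot difference was -1.23 ± 0.0946 SE, adjusted p 5.29e-06. It rose in each WAT library and fell in each BAT library. Idi1 (-0.69 ± 0.0870 SE, adjusted p 0.000193), the rate-setting epoxidase Sqle (-0.67 ± 0.142 SE, adjusted p 0.00498) and Sc5d (-0.50 ± 0.0901 SE, adjusted p 0.002) moved in the same opposite directions. Insig1, the sterol sensor that holds SREBP back, was a BAT-led fall (-0.97 ± 0.152 SE, adjusted p 0.000792).

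Mitochondrial fatty acid oxidation genes fell in both depots, most of them more in BAT cells. Of 15 genes 10 were called below 0 and 1 above 0, against 16.1% and 12% of all tested genes. The median was -0.30, and 14 genes fell in each depot. Acadl, the long-chain dehydrogenase, had the most negative of these differences (-0.63 ± 0.0880 SE, adjusted p 0.000365), and Cpt1a, the carnitine transferase that admits fatty acids to mitochondria, fell in WAT and rose in BAT cells (0.82 ± 0.154 SE, adjusted p 0.00256). The call of the list is not firm: 5 genes were called after median-ratio scaling, 5 without replicate 2, 6 each without replicate 2 of BAT control, replicate 1 of BAT EGCG, replicate 2 of WAT control or replicate 1 of WAT EGCG, and 7 without replicate 2 of BAT EGCG. Of 13 thermogenic genes 2 were called above 0 and 2 below 0, near the 28.1% called over all genes, with a median of 0.06. The uncoupling protein Ucp1 stood at 0.217 to 0.423 FPKM in BAT controls on day 4 and was not called (-0.24 ± 0.150). The β3-adrenergic receptor Adrb3 fell more in WAT cells (0.90 ± 0.154 SE, adjusted p 0.00146, or 1.59 with a pseudocount of 0.1).

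**Figure D4:**
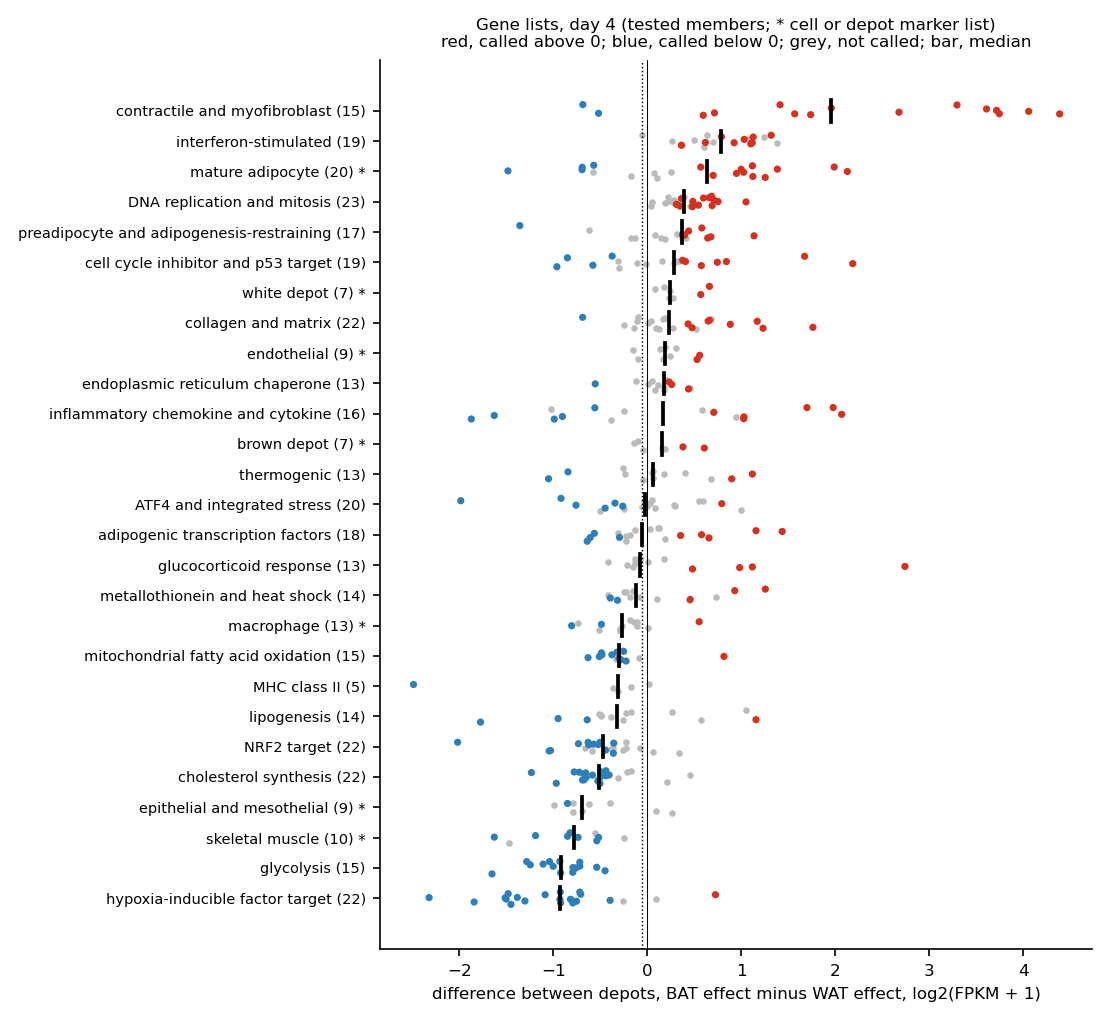
Depot difference of the EGCG effect (horizontal axis, BAT effect minus WAT effect, log2(FPKM + 1), replicates 1 and 2) for the tested members of 27 gene lists, whose number of tested members stands in parentheses. Red and blue points were called above and below 0, grey points were not called, bars mark list medians and the dotted line the median over all tested genes, -0.06, and the medians run from -0.92 for HIF targets to 1.96 for contractile genes.

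Markers of other cells in the cultures moved with the groups, and their part in the results was not tested. Counts of called markers stand against 28.1% of all tested genes, with 12% above 0 and 16.1% below 0. Those of the macrophage, endothelial and depot lists lay near that share. The summed FPKM of 14 skeletal muscle genes was 93.7 to 101.6 in WAT controls, 164.5 to 169.4 in WAT cells with EGCG, 23.4 to 38.8 in BAT controls and 27.9 to 41.2 in BAT cells with EGCG. Of the 10 tested genes 7 were called below 0, and 5 of these 7 had the same sign in replicate 3. Myog, the myogenic factor, was a WAT-led rise (-1.63 ± 0.334 SE, adjusted p 0.0042), opposite in sign to the smooth muscle genes. Without replicate 2 of all groups, with replicate 3 in its place, Myog gave -0.95. The sum of 12 epithelial and mesothelial genes was 41.0 to 85.4 in WAT controls, 66.4 to 202.8 in WAT cells with EGCG, 0.590 to 1.22 in BAT controls and 2.96 to 3.84 in BAT cells with EGCG, and the keratins Krt8 and Krt14 were at 0 in all 6 BAT libraries. A total of 1 of its 9 tested genes was called, below 0. The sum of 16 macrophage genes was 92.1 to 102.1 in WAT controls, 216 to 234 in WAT cells with EGCG, 216 to 241 in BAT controls and 451 to 543 in BAT cells with EGCG, and of 13 tested genes 1 was called above 0 and 2 below 0. The sum of 10 endothelial genes was 32.5 to 37.4 in WAT controls, 71.7 to 75.5 in WAT cells with EGCG, 32.6 to 37.1 in BAT controls and 101 to 103 in BAT cells with EGCG, and of 9 tested genes 2 were called above 0. Of 7 tested brown depot genes 2 were called above 0, of 7 tested white depot genes 2 above 0, and none below.

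Replicate 3, which did not enter the calls from replicates 1 and 2, had the same sign for most called genes. Of 3727 called protein-coding genes 3553 (95.3%) had the same sign in replicate 3, against 77.5% of the 12575 protein-coding genes tested, and of the 461 with at least a 2-fold difference 453 (98.3%) did. Replicate 3 gave 3.44 for Acta2, 2.88 for Ctgf, -2.21 for Ppp1r3c, -2.76 for A2m, 2.31 for Mgp and 1.75 for Ccl2. The rule that named these genes required this sign, so only their size is free. A total of 760 tested genes, 681 of them not protein-coding, are listed at 0 in all 4 day 4 libraries of replicate 3. With all 3 replicates in 1 fit and the table as a term, 5128 genes were called, and 3565 of the 3959 (90.0%) were called in the same direction. The class was the same in that fit for 188 of 222 genes that rose in WAT and fell in BAT cells and for 202 of 226 that fell in WAT and rose in BAT cells.

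**Figure D5:**
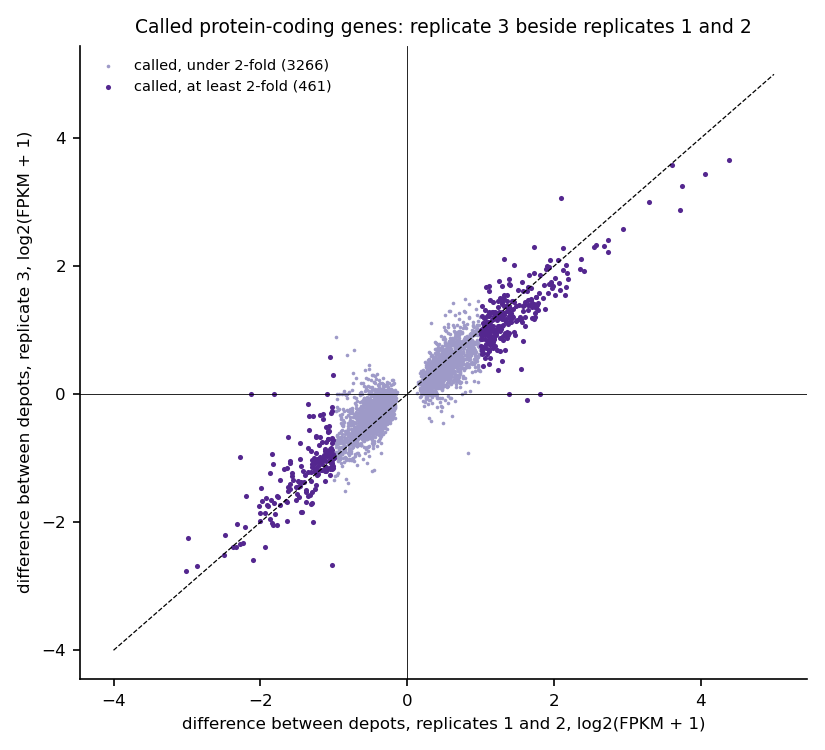
Depot difference in replicate 3 (vertical axis) against that in replicates 1 and 2 (horizontal axis), both log2(FPKM + 1), for the 3727 called protein-coding genes, with light points for differences under 2-fold and dark points for the 461 of at least 2-fold. Most points lie along the dashed line of equal values, and 3553 share the sign.

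The day 8 libraries give another readout of the same depot difference. On day 8, 5520 of 14095 genes (39.2%) were called, 19.4% above 0 and 19.7% below 0. Of the 3959 genes called on day 4, 1799 were called on day 8 in the same direction, 346 in the opposite direction and 1814 were not called. Glycolysis genes were again all below 0 and called, 15 of 15, with a median of -1.13, and 17 of 22 HIF targets were called below 0 and none above. All 19 interferon-stimulated genes were called above 0 on day 8, with a median of 1.91 against 0.79 on day 4. Contractile genes had 9 calls above 0 and 2 below 0 with a lower median, 0.75 against 1.96, and mature adipocyte genes had 9 above 0 and 7 below 0. Acta2 gave 1.07 on day 8 and Ccl2 2.81, against 4.06 and 2.07 on day 4. Other genes named by the rule turned sign. Rdh12 was called above 0 on day 8 (0.53, adjusted p 0.00459, limma) against -1.99 on day 4. Prl2c2 (0.72 against -2.86) and Zim1 (-0.34 against 2.41) turned without a call on day 8. Of 13 thermogenic genes 11 were called below 0 on day 8 and 0 above, with a median of -1.42 against 0.06 on day 4. The change between the days was not tested.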

How the data were processed

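RNA-seq of the 24 libraries was aligned and counted by the authors (FastQC 0.11.9, HISAT2 2.2.0, HTSeq 0.11 and build mm9, per the labels' processing notes), and strand setting and annotation are not given in the sources used here. The values deposited by the authors are FPKM for 37310 genes, in 1 table for replicates 1 and 2 and another for replicate 3. Each was scaled on its own, and single genes such as Gapdh differ between them by more than that. A level set across them is thus not like for like. All gene identifiers matched GENCODE vM1 (build NCBIM37), which gave names and positions. Multiplied back by gene length, all values were whole reads within 0.01, which gave the depth. 

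Genes with an FPKM of at least 1 in 2 of the 16 libraries of replicates 1 and 2 were taken to log2(FPKM + 1), which understates the change of low genes. They were fitted with limma 3.58.1 (R 4.3.3, mean-variance trend) on 8 group means, with 8 residual degrees of freedom and 11.4 with the prior, and called at a Benjamini-Hochberg adjusted p under 0.05 over all genes. Errors are standard errors (SE) of replicates 1 and 2, n = 2 per group. The scripts were tested on simulated data. Named genes are the 4 of largest difference in each of 6 response classes (protein-coding, mean FPKM of at least 5 in the highest group, same sign in the 3 replicates), plus members of the gene lists, of which 2 are counted but not reported here. The comparison, the members and the 27 gene lists (439 entries, 437 matched) were chosen with earlier results of these data known. Alternatives were another pseudocount (0.1), other filters, median-ratio and quantile scaling, a replicate block, all 3 replicates with the table as a term, and leaving out each replicate or library. Promoters are RefSeq windows of GRCm38.p6, a build not mixed with the other positions. Tables were summarised in Python 3.11.15 with pandas 2.3.3 and numpy 2.4.6.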

Additional observations from a re-analysis of the deposited data

Results flagged for a closer look

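Each of the 24 genes named by the rule stands here because the test of the depot difference itself passed. Its response to EGCG on the log2(FPKM + 1) scale thus differed between WAT and BAT cells. The FPKM of Tmem45b itself fell by a like proportion in both depots. All values are the difference in log2(FPKM + 1), BAT effect minus WAT effect, in replicates 1 and 2. Of the genes that rose in WAT and fell in BAT cells these were Chl1 (-2.98), Ppp1r3c (-2.48), Rarres2 (-2.33) and Ppp1r3b (-2.21). The genes that fell in WAT and rose in BAT cells were Actg2 (4.39), Acta2 (4.06), Tagln (3.74) and Ctgf (3.72). WAT-led rises gave A2m (-3.01), Prl2c2 (-2.86), H2-Ab1 (-2.49) and Ndufa4l2 (-2.32), and WAT-led falls gave Mfap4 (2.74), Apol8 (2.57), Mgp (2.55) and Zim1 (2.41). BAT-led rises gave Ccl2 (2.07), Ccl7 (1.98), Tpm2 (1.96) and Foxs1 (1.88), and BAT-led falls gave Tmem45b (-2.38), Rdh12 (-1.99), Lcn2 (-1.87) and Rasd1 (-1.85). They were picked for size among the called genes, so the values lean to the large side. Prl2c2 shares sequence with its near-identical copies, and Tagln, Ctgf, Ccl2, Rarres2, Mfap4, Ndufa4l2, H2-Ab1 and Chl1 overlap another gene, and whether reads were counted by strand is not given. The groups of 3 were too small for a check of single outlying libraries.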

How the results depend on the processing

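Results were recomputed under 20 alternatives. The 24 genes of the rule kept their direction and call in each, and over the 113 genes with values in the text 2232 of the recomputed values kept direction and side of the threshold, 15 lost the call, 9 gained it and 1 turned: Fabp4, not called, gave -0.00531 to 0.234 when a library or replicate was left out, the lowest without replicate 1 of BAT control. With a pseudocount of 0.1 the genes with at least a 2-fold difference numbered 886 (538 with 1). Median-ratio scaling gave 1454 genes below 0 (2270), 131 that rose in WAT and fell in BAT cells (222), 773 WAT-led rises (1284) and 1036 WAT-led falls (611), and it moved the median of all genes from -0.06 to 0.02. It also turned the median of the adipogenic factors (from -0.05 to 0.04), ATF4 targets (from -0.02 to 0.07) and glucocorticoid genes (from -0.08 to 0.02), and quantile normalization turned that of the metallothionein and heat shock genes (from -0.11 to 0.03) and of the ATF4 targets (to 0.00756). The cause was not tested. Leaving out a replicate or library gave 2862 to 3405 called genes, 388 to 578 of at least 2-fold, 1303 to 1454 above 0 and 1442 to 2005 below 0. It gave 133 to 191 genes that rose in WAT and fell in BAT cells, 170 to 200 with the opposite response, 753 to 1145 WAT-led rises, 458 to 604 WAT-led falls, 584 to 727 BAT-led rises and 426 to 623 BAT-led falls. The EGCG effect was called for 6159 to 7499 genes in WAT (7567 with all libraries) and 5481 to 6794 in BAT cells (6838). Where a group was left with 1 library, that library is taken to vary like the others. The values gave no sign that replicate numbers pair the samples: deviations of same-numbered libraries correlated between -0.03 and 0.08 over the 6 pairs of groups. Whether same-numbered samples shared an isolation is not in the labels. A fit with the replicate block called 3824 genes (43.1% above 0) and 537 of at least 2-fold, and the block with all 3 replicates called 5050. Of the counts over the 20 lists of pathway genes 362 stayed within 1.5 times and 38 did not. The 7 marker lists, mature adipocyte genes among them, were not part of this check. Log2 differences between libraries of a group had a standard deviation of 0.189 to 0.204 between replicates 1 and 2. Against replicate 3, which has the lower depth and another scaling, it was 0.655 to 0.675. The second table also differs gene by gene: Gapdh stands at another order of level there, and 760 tested genes are at 0 in all 4 day 4 libraries. Whether reads were assigned to genes differently in the 2 tables was not tested.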

Other observations

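In the stress response lists not described above the share of called members was near that over all tested genes (28.1%, with 12% above 0 and 16.1% below 0). Of 14 metallothionein and heat shock genes 3 were called above 0 and 2 below 0, and 9 were called with all 3 replicates and 9 without replicate 1. The inducible chaperone Hspa1b had 21.4, 18.5 and 22.5 FPKM in WAT controls and 10.9, 9.46 and 12.2 in WAT cells with EGCG. BAT controls had 5.60, 4.87 and 5.69, and BAT cells with EGCG had 6.97, 6.92 and 6.90. This was a fall in WAT and a rise in BAT cells (1.26 ± 0.178 SE, adjusted p 0.000404, limma). The constitutive chaperone Hspa8 fell more in WAT cells (0.46 ± 0.0910 SE, adjusted p 0.00349). Of 13 endoplasmic reticulum chaperone genes, 8 fell in each depot, 3 were called above 0 and 1 below 0. These counts varied, with 7 called by the fit of all 3 replicates and 2 without replicate 2 of BAT control, replicate 1 of BAT EGCG or replicate 1 of WAT EGCG. The main chaperone Hspa5 was not called (0.20 ± 0.133) but passed in the fit of all 3 replicates (adjusted p 0.00953), the secreted Manf fell more in WAT cells (0.44 ± 0.0815 SE, adjusted p 0.00238), and Xbp1, a factor of the unfolded protein response, was a BAT-led fall (-0.55 ± 0.0890 SE, adjusted p 0.000939).

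Shares in the following lists stand against the same 12% and 16.1%. Of 20 targets of ATF4, the factor of the integrated stress response, 1 was called above 0 and 6 below 0, and the fits without replicate 1 and without replicate 2 called 11 each. The pseudokinase Trib3 was a BAT-led fall (-0.76 ± 0.173 SE, adjusted p 0.00761) and Phgdh, of serine synthesis, a BAT-led rise (0.79 ± 0.134 SE, adjusted p 0.0013). Of 13 glucocorticoid response genes 4 were called above 0 and none below (7 called with all 3 replicates). They included Sgk1 and the phosphatase Dusp1, a BAT-led rise (0.98 ± 0.189 SE, adjusted p 0.0029). Of 19 cell cycle inhibitors and p53 targets 7 lay above 0 and 4 below 0, and of 17 preadipocyte and restraining genes 7 lay above 0 and 1 below 0.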
